A study of Rattus norvegicus with 12 samples.

Results

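Collagen genes were followed in PAC1, a line of rat vascular smooth muscle cells that came from the pulmonary artery, after knockdown of 3 RNA-binding proteins. Members were taken by their symbols, as every row of the count table that reads Col, a number, a and a number, which gave 44 collagen genes of 33294 genes in all. The comparison of interest was between the structural classes of collagen, namely fibrillar (11 genes), basement membrane (6), network-forming (3) and fibril-associated or FACIT collagens (9), with beaded filament (6), anchoring fibril (1), multiplexin (2), transmembrane (4) and 2 further collagens beside them.

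The series held 12 RNA-seq libraries of poly(A) RNA, 3 for each of 4 siRNAs. Control cells (labelled C2) received a negative control siRNA, and the other groups an siRNA against RBPMS (RBPMS-KD), RBFOX2 (labelled FOX2-KD, here RBFOX2-KD) or QKI (QKI-KD, gene symbol Qk). All 4 groups were PAC-1 cells of 1 line, grown with serum, exposed to the same transfection reagent and given 90 pmol of siRNA on 2 occasions, 24 h apart by the labels, with harvest 48 h after the second. The paper describes these knockdowns as made in differentiated PAC1 cells, which it found less differentiated than those of its other experiment. RBPMS binds RNA and is most abundant in smooth and heart muscle, and RBFOX2 and QKI are more widely expressed regulators of splicing. Each protein was depleted with a single siRNA design, so an effect of the siRNA itself and an effect of losing its target cannot be told apart. The sense strands listed for these designs are shown because they define the groups, all in lower case since no part of them was compared.
C2: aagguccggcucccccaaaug
RBPMS: ggcggcaaagccgagaaggcgaaca
RBFOX2: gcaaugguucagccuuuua
QK: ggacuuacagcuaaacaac

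Collagens are secreted proteins whose chains wind around each other into a helix, and the class depends on what the trimers then build. Fibrillar collagens, led by types I and III in the vessel wall, pack into the cables that bear tension. Type IV collagen forms the sheet of the basement membrane that surrounds each smooth muscle cell, type VIII forms open lattices in vessels, and FACIT collagens sit on fibril surfaces and link them to other matrix. Smooth muscle cells are the main source of collagen in the arterial media, and the mixture they make changes when they leave the contractile state.

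Library totals ran from 111 to 152 M counts, more than the reads per sample that the study describes, and small counts were more often even than odd. If both mates of a read pair were counted, the counts overstate the fragments, and whether they were is not given in the sources used here. Levels are given as CPM, counts scaled to a common library size after TMM normalization, which corrects for differences in RNA composition. Collagen counts made up 2.68 to 2.99% of a control library, 3.43 to 4.03% after RBPMS knockdown, 4.01 to 4.26% after RBFOX2 knockdown and 2.89 to 3.3% after QKI knockdown. The siRNA targets fell in their own groups, with log2 fold changes of −2.50 for Rbpms, −2.05 for Rbfox2 and −3.13 for Qk. Rbpms was also lower in RBFOX2-KD (mean 23.1 CPM) and QKI-KD cells (29 CPM) than in control (40.7 CPM). Qk was lower in RBFOX2-KD (174 CPM) and higher in RBPMS-KD cells (265 CPM) than in control (233 CPM). RBFOX2-KD and QKI-KD cells thus had less RNA of more than 1 target, and its part in the collagen results was not tested. Libraries of 1 group were not equally high in collagen. Of the 22 members with a mean of at least 5 CPM, RBPMS-KD replicate 2 was the lowest of its group for 20, control replicate 3 the highest for 16 and QKI-KD replicate 2 the highest for 16. The labelled cell type was checked against 8 smooth muscle markers, all of which had counts, and their summed level was 2109 to 2175 CPM in control, 1069 to 1176 CPM in RBPMS-KD, 827 to 925 CPM in RBFOX2-KD and 1441 to 1526 CPM in QKI-KD. Of the 8 markers 2 rose and 6 fell after RBPMS knockdown, and 2 rose and 5 fell after RBFOX2 and after QKI knockdown, and their part in the collagen results was not tested. Lists of 5 endothelial and 5 leukocyte markers summed to at most 10.8 and 2.84 CPM in any library. Because the RNA came from whole cultures, fewer cells of a type and less RNA per cell cannot be told apart.

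A member is said to rise or fall where the adjusted p of edgeR's quasi-likelihood test, taken over all 18438 genes tested, was under 0.05, and to change over 2-fold where the absolute log2 fold change was also above 1. Of the 44 collagen genes, 36 had enough counts to be tested, 1 of them (Col24a1) with no control library above the filter. After RBPMS knockdown 4 members were over 2-fold higher and 5 over 2-fold lower, 9 of 36 (25%), where 9.66% of all genes tested passed the same rule, 5.16% higher and 4.5% lower. RBFOX2 knockdown gave 4 higher and 1 lower, 5 of 36 (13.9%), against 11.7% of all genes, 6.96% higher and 4.73% lower. In QKI-KD cells 4 members were higher and 7 lower, 11 of 36 (30.6%), against 17.5% of all genes, 8.28% higher and 9.24% lower. Each of these counts of 4 higher includes Col24a1, which was tested only because it was higher in knockdown libraries. The RBFOX2 share was near that of all genes even with Col24a1 counted. Members with a mean of at least 5 CPM, given next, leave Col24a1 out. Of the 22 members with a mean of at least 5 CPM, 5, 3 and 7 changed over 2-fold in the same order, against 4.54%, 5.78% and 10.9% of genes at that level. The 7 include Col7a1, which reached that mean only through the QKI-KD libraries. Its mean was 22.4 CPM there, against 1.42 in control, 2.26 in RBPMS-KD and 1.11 in RBFOX2-KD, so its call adds no weight to the QKI count. At the adjusted p alone, 9 members rose and 15 fell after RBPMS knockdown, 15 rose and 11 fell after RBFOX2 knockdown, and 11 rose and 18 fell after QKI knockdown, where 59.4%, 60.3% and 66.9% of all genes tested passed (30.4% up and 29% down, 30.1% up and 30.1% down, and 32.9% up and 34% down). The knockdown and control libraries did not overlap for 22, 27 and 30 of the 36 members, against 61.7%, 68.6% and 72.3% of all genes. Col24a1 is also among the members that rose, and among those without overlap, in each comparison. Without control replicate 3 the counts over 2-fold were 8, 5 and 10, without RBPMS-KD replicate 2 the RBPMS count was 10, and without QKI-KD replicate 2 the QKI count was 10. The median log2 fold change over the 36 members was −0.15, 0.09 and −0.24 in that order, beside 0.01 over all genes in each comparison. Because the 3 comparisons share the same control libraries, their values are set side by side here and no overlap between them is drawn.

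**Figure D1:**
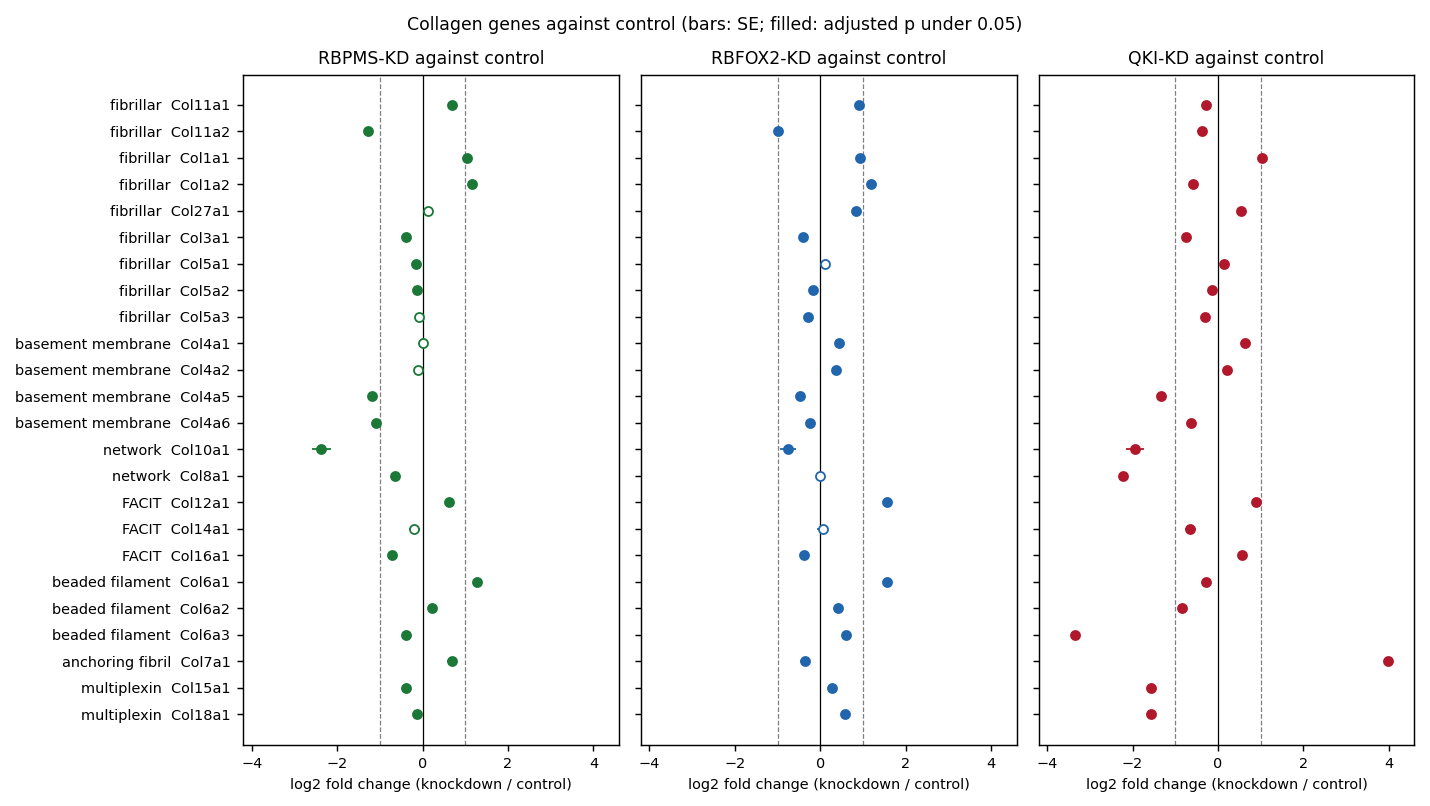
Log2 fold change against control (x axis) of the 24 named collagen genes (y axis, with their class), 1 panel per knockdown. Filled points have an adjusted p under 0.05, bars are SE and are mostly hidden by the points, and dashed lines mark a 2-fold change. Col7a1 and Col6a3 lie farthest from 0, both in QKI-KD cells.

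Fibrillar, basement membrane and FACIT collagens did not move as blocks, whereas all 3 network genes fell after RBPMS and QKI knockdown. Among fibrillar collagens the median log2 fold change of the 11 tested genes was 0.13 in RBPMS-KD, 0.83 in RBFOX2-KD and −0.13 in QKI-KD cells. These 11 include Col24a1, which was tested only because it was higher in knockdown libraries and so raises each fibrillar median. Basement membrane genes, 6 tested, had medians of −0.32, −0.12 and 0. For the 3 network genes the medians were −0.68, −0.74 and −1.94, and none of the 3 rose in any knockdown. The 7 tested FACIT genes gave −0.72, 0.06 and −0.1. Fibrillar and FACIT genes held members that rose and members that fell in all 3 comparisons, and basement membrane genes did so after RBFOX2 and QKI knockdown. Each median therefore stands for few genes, and no test between classes was made. With only members above a mean of 50 counts, which leaves out Col24a1, the fibrillar medians were −0.081, 0.128 and −0.245. The FACIT median was then −0.191 after RBPMS and 0.593 after QKI knockdown. Leaving out 1 library turned the sign of the FACIT median after RBFOX2 knockdown (−0.075 without control replicate 2, −0.028 without RBFOX2-KD replicate 1 and −0.063 without RBFOX2-KD replicate 3) and after QKI knockdown (0.293 without control replicate 2 and 0.085 without QKI-KD replicate 2). The basement membrane median after RBPMS knockdown was −0.17 without RBPMS-KD replicate 2, −0.196 without control replicate 3 and −0.533 without RBPMS-KD replicate 1, and after RBFOX2 and QKI knockdown this median lay on both sides of 0 (−0.243 to 0.003 and −0.08 to 0.123).

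Summed over a class, levels give the weight of its abundant members. The fibrillar sum was 23161 to 26404 CPM in control libraries and 32103 to 37554 CPM after RBPMS knockdown, and it reached 33360 to 35570 CPM after RBFOX2 knockdown. These ranges did not overlap with control, whereas the QKI-KD range, 25167 to 29272 CPM, did. Basement membrane collagens summed to 664 to 729 CPM in control and 458 to 526 CPM in RBPMS-KD libraries, with 707 to 759 CPM in RBFOX2-KD and 627 to 658 CPM in QKI-KD. The network sum fell outside the control range of 503 to 569 CPM in RBPMS-KD libraries, at 297 to 357 CPM, and further in QKI-KD libraries, at 103 to 126 CPM, while RBFOX2-KD libraries, at 520.1 to 528 CPM, lay within it. The FACIT sum went the other way, from 264 to 345 CPM in control to 546 to 585 CPM in RBFOX2-KD and 395 to 417 CPM in QKI-KD. Its RBPMS-KD range of 295 to 383 CPM overlapped control. The rise of this sum came largely from Col12a1, with means of 141 CPM in control, 417 CPM in RBFOX2-KD and 264 CPM in QKI-KD. The FACIT medians were near 0 in these knockdowns (0.06 and −0.1). Outside the 4 classes, beaded filament genes summed to 1393 to 1472 CPM in control, 2092 to 2233 CPM in RBPMS-KD, 2563 to 2613 CPM in RBFOX2-KD and 869.8 to 903 CPM in QKI-KD, and the 2 multiplexins to 1113 to 1178, 929 to 1072, 1576 to 1616 and 368 to 392 CPM in that order. Both sums were thus highest after RBFOX2 knockdown and lowest after QKI knockdown, with no overlap of either with control. A class sum follows its most counted gene, and long transcripts collect more counts, so the sums are compared between groups and not between classes.

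**Figure D2:**
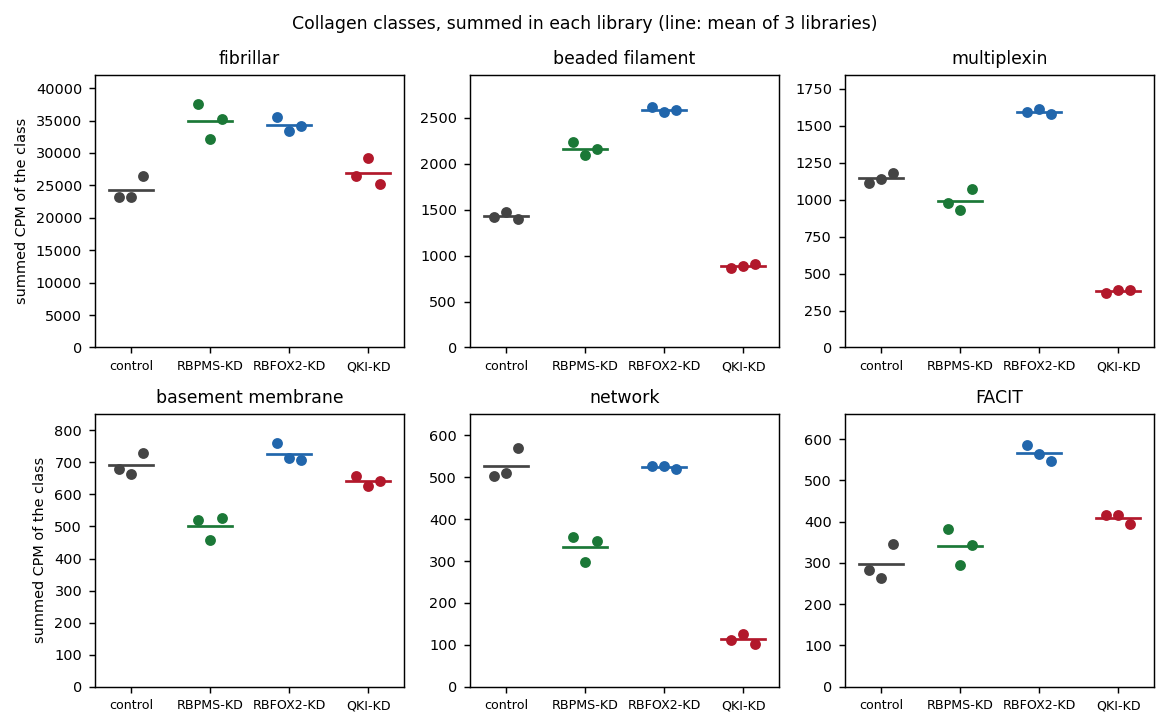
Summed CPM (y axis, from 0) of 6 collagen classes in each library (points), by group (x axis), with lines at the means of 3 libraries. The network sum in QKI-KD libraries, 103 to 126 CPM, lies under all others of its panel, and the FACIT sum is highest in RBFOX2-KD libraries.

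The chains of type I collagen, the bulk of most fibrils, parted in QKI-KD cells. Col1a1, which encodes the α1 chain, was at 7300, 7292 and 8388 CPM in the control libraries, 17047, 13915 and 15950 CPM in RBPMS-KD, 15369, 13960 and 14615 CPM in RBFOX2-KD and 15219, 16937 and 14452 CPM in QKI-KD. Every knockdown library lay above every control library. The rise was close to 2-fold in each case, with log2 fold changes of 1.03 (SE 0.0718, adjusted p = 1.65e-09), 0.94 (SE 0.0716, adjusted p = 4.74e-09) and 1.02 (SE 0.0717, adjusted p = 9.6e-10) in that order. Col1a2, which encodes the α2 chain of the same trimer, was at 3938, 4069 and 4547 CPM in control, 9938, 8574 and 9378 CPM in RBPMS-KD, 9828, 9338 and 9505 CPM in RBFOX2-KD and 2723, 3068 and 2618 CPM in QKI-KD. It stood above control in the first 2 knockdowns and below control in all 3 QKI-KD libraries. In log2 terms the changes were 1.15 (SE 0.0627, adjusted p = 7.39e-11), 1.19 (SE 0.0628, adjusted p = 3.65e-11) and −0.58 (SE 0.0622, adjusted p = 2.55e-07). Between knockdowns, Col1a2 was higher in RBPMS-KD than in QKI-KD cells by 1.73 on the log2 scale (edgeR adjusted p = 2.68e-13) and higher in RBFOX2-KD than in QKI-KD cells by 1.77 (adjusted p = 1.28e-13), whereas Col1a1 differed by 0.01 and −0.08 (adjusted p = 0.918 and 0.303). The count ratio of Col1a1 to Col1a2 was 1.79 to 1.85 in control, 1.62 to 1.72 in RBPMS-KD and 1.5 to 1.56 in RBFOX2-KD libraries, and 5.52 to 5.59 in QKI-KD libraries. Col1a1 sat near the 2-fold limit after RBPMS and QKI knockdown. Its log2 fold change for RBPMS dropped to 0.99 without control replicate 1 or 2 and to 0.96 without RBPMS-KD replicate 1, and for QKI to 0.98 without control replicate 1 or 2 and to 0.95 without QKI-KD replicate 2. In the authors' normalised table these values were 0.91 and 0.8.

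**Figure D3:**
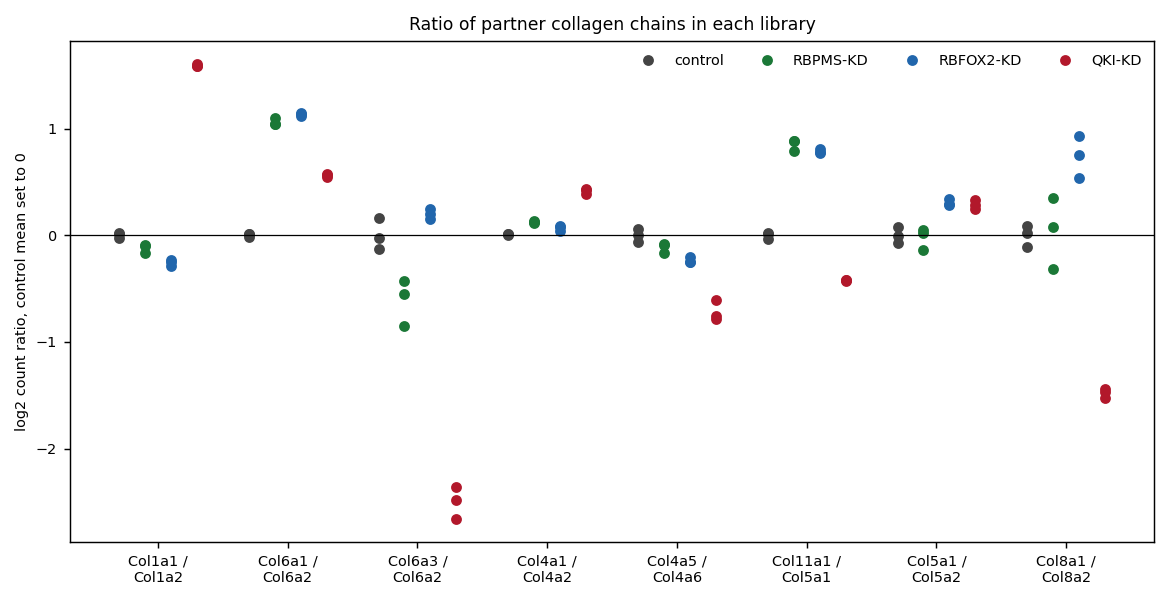
Log2 ratio of counts of paired collagen chains (y axis, the control mean of each pair set to 0) for 8 pairs (x axis) in each library (points, coloured by group). Col1a1 against Col1a2 is shifted by 1.6 and Col6a3 against Col6a2 by −2.5 in QKI-KD libraries, and Col6a1 against Col6a2 by 1.06 and 1.14 in RBPMS-KD and RBFOX2-KD libraries.

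Type III collagen fell in every knockdown. Col3a1, whose homotrimers join type I in the fibrils of elastic vessels, was at 8748, 8648 and 10105 CPM in control, 7344, 6779 and 6829 CPM in RBPMS-KD, 7137, 6860 and 6736 CPM in RBFOX2-KD and 5386, 5944 and 4998 CPM in QKI-KD. No knockdown library reached the lowest control. Its log2 fold changes were −0.39 (SE 0.061, adjusted p = 2.72e-05), −0.41 (SE 0.061, adjusted p = 1.77e-05) and −0.75 (SE 0.0612, adjusted p = 6.81e-09). Col3a1 was lower in QKI-KD than in RBPMS-KD cells (log2 difference of RBPMS-KD over QKI-KD 0.36, adjusted p = 6.49e-05).

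Type V collagen nucleates fibrils and sets their width, and its chains moved little. Col5a1 was at 1081, 1081 and 1194 CPM in control, 1088, 885 and 1039 CPM in RBPMS-KD, 1232, 1194 and 1211 CPM in RBFOX2-KD and 1220, 1315 and 1193 CPM in QKI-KD. The libraries overlapped in all 3 comparisons, and the log2 fold changes were −0.16, 0.12 and 0.15 (adjusted p = 0.0356, 0.11 and 0.036). The RBPMS call was lost without control replicate 3 (−0.11) or RBPMS-KD replicate 2 (−0.07), the QKI call without control replicate 1 (0.13) or 2 (0.13) or QKI-KD replicate 1 (0.16) or 2 (0.11), and Col5a1 passed for RBFOX2 without control replicate 3 (0.16). Col5a2 was at 1832, 1907 and 1894 CPM in control, 1771, 1643 and 1718 CPM in RBPMS-KD, 1640, 1647 and 1677 CPM in RBFOX2-KD and 1690, 1760 and 1686 CPM in QKI-KD. All knockdown libraries were under all controls. It fell slightly in each, with values of −0.13, −0.18 and −0.13 (adjusted p = 0.00228, 0.000152 and 0.00208), although in the authors' quantile-normalised table the RBFOX2 value was 0.03. Col5a3 was at 119.7, 126 and 128 CPM in control, 127, 109 and 118 CPM in RBPMS-KD, 101, 106 and 101 CPM in RBFOX2-KD and 95.7, 113 and 95.6 CPM in QKI-KD. It fell after RBFOX2 (−0.28, adjusted p = 0.000645) and QKI knockdown (−0.30, adjusted p = 0.000273), and its log2 fold change in RBPMS-KD was −0.08 (adjusted p = 0.265).

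Type XI chains, known from the thin fibrils of cartilage, went in different directions. Col11a1 was at 121, 122 and 129 CPM in control, 222, 181 and 199 CPM in RBPMS-KD, 233, 228 and 236 CPM in RBFOX2-KD and 101, 109 and 99.2 CPM in QKI-KD, so that the first 2 knockdowns stood above control and the last below it. The log2 fold changes were 0.69 (SE 0.0572, adjusted p = 1.35e-08), 0.91 (SE 0.0572, adjusted p = 3.96e-10) and −0.27 (SE 0.0573, adjusted p = 0.000509), and RBFOX2-KD exceeded QKI-KD by 1.17 (adjusted p = 8.1e-12). Col11a2 was at 5.04, 4.36 and 4.17 CPM in control, 1.96, 1.69 and 2.01 CPM in RBPMS-KD, 2.33, 2.05 and 2.51 CPM in RBFOX2-KD and 3.64, 3.7 and 3.11 CPM in QKI-KD. It fell in all 3, with log2 fold changes of −1.27 (SE 0.112, adjusted p = 3.18e-08), −0.98 (SE 0.108, adjusted p = 4.86e-07) and −0.38 (SE 0.105, adjusted p = 0.0044). The RBFOX2 value passed 2-fold without control replicate 2 (−1.01) or 3 (−1.04) or RBFOX2-KD replicate 3 (−1.05). In counts, Col11a1 relative to Col5a1, a chain it can replace in mixed trimers, had a log2 shift from control of 0.85 in RBPMS-KD, 0.79 in RBFOX2-KD and −0.42 in QKI-KD libraries.

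Col27a1, a fibrillar collagen of the growth plate, was at 14.9, 14.5 and 14.3 CPM in control, 16.6, 14 and 17.4 CPM in RBPMS-KD, 26.9, 25.3 and 25.3 CPM in RBFOX2-KD and 21.5, 22.2 and 20.4 CPM in QKI-KD. It rose after RBFOX2 (0.83, SE 0.0644, adjusted p = 6.02e-09) and QKI knockdown (0.55, SE 0.0649, adjusted p = 8e-07), and overlapped control in RBPMS-KD (0.13, adjusted p = 0.0956), where it passed the test when RBPMS-KD replicate 2 was left out and under no other alternative run (0.22, adjusted p = 0.000898). Col24a1, a minor fibrillar collagen, had 4 to 6 counts in a control library, 11 to 26 in RBPMS-KD, 10 to 23 in RBFOX2-KD and 28 to 55 in QKI-KD. No control library reached the filter on low counts, so Col24a1 was tested only because it was higher elsewhere, and its calls carry no weight as a count. The values against control were 2.09, 1.53 and 2.91 (adjusted p = 0.00132, 0.0138 and 2.58e-05), which makes it 1 of the 4 members over 2-fold higher in each comparison. Col2a1, the main collagen of cartilage, held 2 to 38 counts a library and passed no test.

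Basement membrane genes split by gene pair. Col4a1 and Col4a2 encode the chains found in every basement membrane and lie head to head, reading away from each other. The RefSeq starts of the pair are 76 bases apart in the assembly GRCr8, which is not the build of the counts, and the stretch between them (chr16:84885521-84885596, + strand, toward Col4a1) is printed because both genes start from it, with capitals on the single match to GGGCGG on either strand, a binding box of the factor Sp1.
Col4a1 and Col4a2: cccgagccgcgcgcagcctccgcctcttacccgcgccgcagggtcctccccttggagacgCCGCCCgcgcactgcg
The stretch is 78.9% G or C and holds no CCAAT on either strand. In the windows of 300 bases from 250 before to 50 after a start, GGGCGG occurred in 33.1% of 33469 RefSeq promoters and in 19 of the 35 collagen promoters listed (54.3%), and CCAAT in 37.5% and in 11 of 35 (31.4%).

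Both genes of this pair rose after RBFOX2 and QKI knockdown, but Col4a1 rose more than Col4a2 after QKI knockdown. Col4a1 was at 174, 170.1 and 179 CPM in control, 182, 159.6 and 185 CPM in RBPMS-KD, 249, 228 and 228 CPM in RBFOX2-KD and 277, 259.8 and 273 CPM in QKI-KD. Col4a2 was at 199, 193 and 204 CPM in control, 189.8, 169 and 194 CPM in RBPMS-KD, 268, 253 and 246 CPM in RBFOX2-KD and 242, 219.8 and 233 CPM in QKI-KD. Both stood above control in every RBFOX2-KD and QKI-KD library, and both overlapped control in RBPMS-KD. Col4a1 rose by 0.43 (adjusted p = 1.22e-06) and 0.63 (adjusted p = 6.32e-09) on the log2 scale after RBFOX2 and QKI knockdown, and Col4a2 by 0.36 (adjusted p = 6.73e-06) and 0.22 (adjusted p = 0.000884). For RBPMS the values were 0.01 (adjusted p = 0.932) and −0.11 (adjusted p = 0.0739), the latter passing without RBPMS-KD replicate 3 (−0.15). Their count ratio was 0.875 to 0.882 in control, 0.946 to 0.959 in RBPMS-KD, 0.9 to 0.93 in RBFOX2-KD and 1.15 to 1.18 in QKI-KD libraries.

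Col4a5 and Col4a6, another head-to-head pair whose chains join in the basement membranes of smooth muscle, fell in every knockdown. Col4a5 was at 248, 246 and 279 CPM in control, 118, 104 and 118 CPM in RBPMS-KD, 190.2, 184 and 184 CPM in RBFOX2-KD and 99.5, 106 and 99 CPM in QKI-KD, with no overlap between control and any knockdown. On the log2 scale Col4a5 moved by −1.19 (SE 0.054, adjusted p = 7.41e-12), −0.47 (SE 0.0531, adjusted p = 6.81e-07) and −1.34 (SE 0.0542, adjusted p = 5.22e-13). Col4a6 was at 55.4, 52.9 and 65 CPM in control, 29.6, 24.6 and 27.8 CPM in RBPMS-KD, 50.7, 49 and 47.4 CPM in RBFOX2-KD and 38.5, 40.2 and 33.9 CPM in QKI-KD. Its log2 fold changes were −1.08 (SE 0.0783, adjusted p = 2.7e-09), −0.24 (SE 0.0761, adjusted p = 0.0123) and −0.62 (SE 0.0769, adjusted p = 1.43e-06). Without control replicate 3 the RBPMS value was −0.99 and the RBFOX2 value, −0.15, no longer passed. Both genes were lower in RBPMS-KD than in RBFOX2-KD cells, with log2 differences of −0.72 and −0.84 (adjusted p = 6.3e-09 and 9.07e-08). Col4a3 and Col4a4, chains of kidney and lung basement membranes, had 103 to 196 and 9 to 25 counts a library and passed no test against control.

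All 3 network collagens fell after RBPMS and QKI knockdown, Col8a1 most after QKI knockdown. The falls of Col10a1 in RBPMS-KD and QKI-KD cells did not differ by the direct test. Col8a1, a vascular collagen that is made by smooth muscle cells after injury, was at 499, 508 and 564 CPM in control, 356, 296 and 347 CPM in RBPMS-KD, 524, 526 and 518 CPM in RBFOX2-KD and 109, 125 and 101 CPM in QKI-KD. RBFOX2-KD libraries lay within the control range and QKI-KD libraries far beneath it. Against control the log2 values were −0.65 (SE 0.0708, adjusted p = 4.22e-07), 0.00 (adjusted p = 0.978) and −2.23 (SE 0.074, adjusted p = 4.11e-14). Col10a1, the collagen of hypertrophic cartilage, was at 2.61, 1.68 and 3.35 CPM in control, 0.432, 0.547 and 0.482 CPM in RBPMS-KD, 1.5, 1.66 and 1.37 CPM in RBFOX2-KD and 0.549, 0.731 and 0.718 CPM in QKI-KD, with a wide spread among controls. It fell in each, with log2 values of −2.37 (SE 0.223, adjusted p = 7.02e-08), −0.75 (SE 0.193, adjusted p = 0.00286) and −1.94 (SE 0.212, adjusted p = 3.2e-07), and the RBFOX2 value was −0.98 without control replicate 2 and −0.5 without control replicate 3. Col8a2, the partner chain of Col8a1, had 77 to 215 counts a library and fell in all 3 (−0.68, −0.74 and −0.76, adjusted p = 0.00156, 0.000733 and 0.000528). A list of 5 chondrocyte markers, set beside Col10a1 and Col11a2, did not move as a block. Its sum was 2653 to 2986 CPM in control, 1344 to 1788 CPM in RBPMS-KD, 1528 to 1617 CPM in RBFOX2-KD and 994 to 1143 CPM in QKI-KD, nearly all of it from Acan, and of its 3 tested genes 1 fell and 1 or 2 rose in each knockdown. At least 1 of the 5 had 3 counts or fewer in every library of each group, and the part of such cells in these results was not tested.

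Among FACIT collagens Col12a1 rose in every knockdown and Col16a1 changed direction between them. Col12a1, which coats type I fibrils in tissues under load, was at 136, 132 and 157 CPM in control, 244, 182 and 229.9 CPM in RBPMS-KD, 423, 419.6 and 409 CPM in RBFOX2-KD and 264, 268 and 261 CPM in QKI-KD. All knockdown libraries were above all controls. The rise was 0.63 (SE 0.0792, adjusted p = 2.57e-06), 1.56 (SE 0.0804, adjusted p = 2.67e-11) and 0.90 (SE 0.0794, adjusted p = 1.93e-08) on the log2 scale, and Col12a1 was higher in RBFOX2-KD than in QKI-KD cells by 0.66 (adjusted p = 9.13e-07). Col14a1, its relative on the surface of mature fibrils, was at 94.6, 80.1 and 124 CPM in control, 104, 79.9 and 78.7 CPM in RBPMS-KD, 116, 102 and 94.3 CPM in RBFOX2-KD and 69.3, 64.7 and 56.2 CPM in QKI-KD. It fell after QKI knockdown (−0.65, SE 0.132, adjusted p = 0.000313) and overlapped control otherwise (−0.19 and 0.06, adjusted p = 0.227 and 0.701), although the RBPMS value passed without control replicate 2 (−0.33) or RBPMS-KD replicate 1 (−0.33) and the RBFOX2 value, 0.06, turned to −0.07 without control replicate 2 and −0.03 without RBFOX2-KD replicate 1.

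Col16a1, a minor fibril-associated collagen, was at 50.4, 47.9 and 59.4 CPM in control, 32.8, 31 and 31.7 CPM in RBPMS-KD, 42.3, 39.98 and 38.7 CPM in RBFOX2-KD and 78.1, 81.4 and 74.4 CPM in QKI-KD. It fell in RBPMS-KD (−0.72, SE 0.0637, adjusted p = 3.03e-08) and RBFOX2-KD cells (−0.38, SE 0.0628, adjusted p = 4.7e-05) and rose in QKI-KD cells (0.57, SE 0.0622, adjusted p = 3.14e-07), and the direct difference of RBPMS-KD from QKI-KD was −1.29 (adjusted p = 1.37e-11). Col19a1, a rare collagen of basement membrane zones, had 50 to 349 counts a library and was over 2-fold lower in all 3 (−1.87, −1.19 and −1.23, adjusted p = 4.24e-06, 0.000229 and 0.000149). Col20a1 rose after RBFOX2 (0.74) and QKI knockdown (0.88), from 163 to 345 counts a library. Of the type IX chains, which decorate cartilage fibrils, Col9a3 fell after RBPMS knockdown (−0.78, adjusted p = 0.0259), and Col9a2, at 3 to 40 counts a library, passed no test against control but was lower in RBPMS-KD than in RBFOX2-KD cells (log2 difference −1.40, adjusted p = 0.0409).

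**Figure D4:**
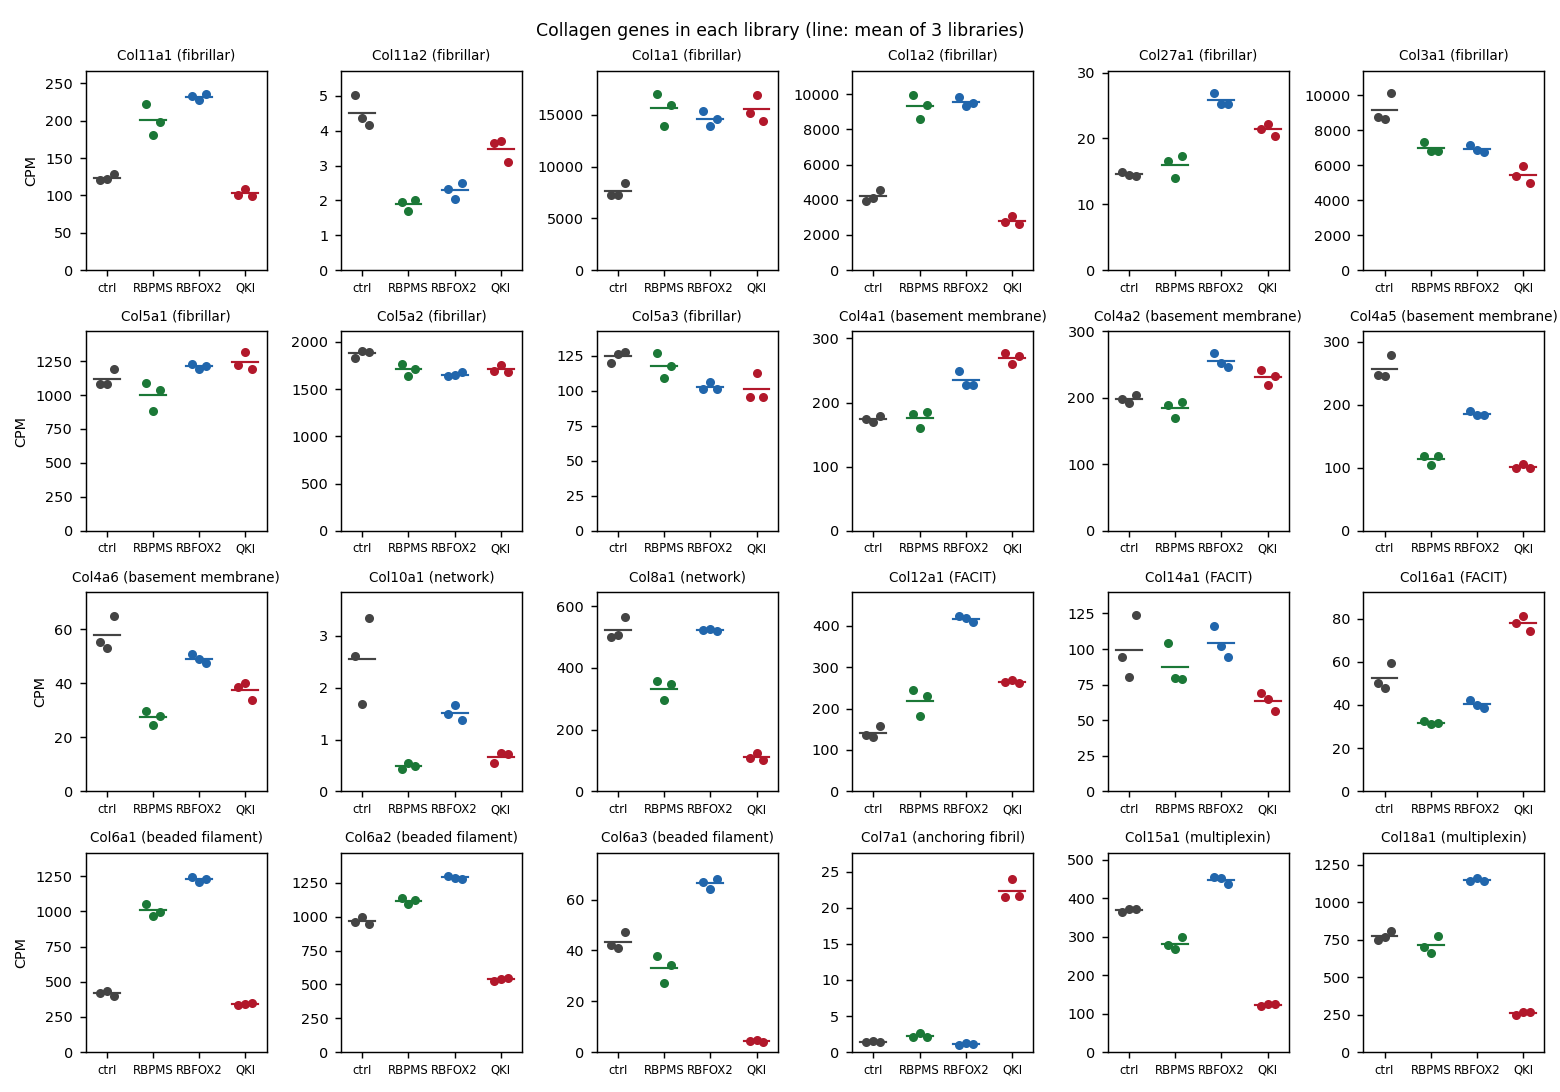
CPM (y axis, from 0) of the 24 named collagen genes in each library (points) by group (x axis: control, RBPMS-KD, RBFOX2-KD and QKI-KD), with lines at the means of 3 libraries. Col1a1 is high in all knockdowns, Col1a2 in 2 of them, and Col7a1 is highest in QKI-KD cells.

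Type VI collagen forms beaded filaments close to the cell surface from 3 different chains, and these did not keep step. Col6a1 was at 417, 434 and 402 CPM in control, 1054, 970.1 and 998 CPM in RBPMS-KD, 1244, 1209 and 1231 CPM in RBFOX2-KD and 336, 343 and 352 CPM in QKI-KD. Col6a2 was at 961, 997 and 944 CPM in control, 1140, 1094 and 1124 CPM in RBPMS-KD, 1302, 1290 and 1283 CPM in RBFOX2-KD and 529, 540.4 and 547 CPM in QKI-KD. Both were above control in every RBPMS-KD and RBFOX2-KD library and below it in every QKI-KD library. For Col6a1 the log2 fold changes were 1.27 (SE 0.0378, adjusted p = 4.36e-14), 1.56 (SE 0.0381, adjusted p = 1.66e-15) and −0.28 (SE 0.0373, adjusted p = 3.39e-06), and for Col6a2 0.21 (SE 0.0311, adjusted p = 1.56e-05), 0.42 (SE 0.0311, adjusted p = 3.39e-09) and −0.84 (SE 0.0313, adjusted p = 1.76e-13). Col6a2 was higher in RBPMS-KD than in QKI-KD cells by 1.06 (adjusted p = 1.78e-14), a value that was 0.93 with library totals alone. The count ratio of Col6a1 to Col6a2 was 0.426 to 0.435 in control, 0.887 to 0.925 in RBPMS-KD, 0.938 to 0.96 in RBFOX2-KD and 0.634 to 0.643 in QKI-KD libraries, so it was higher in each knockdown, also in QKI-KD cells where both chains fell.

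Col6a3, the chain that completes the trimer, was at 42, 41 and 47.3 CPM in control, 37.9, 27.2 and 34.4 CPM in RBPMS-KD, 66.8, 64.3 and 68.2 CPM in RBFOX2-KD and 4.24, 4.72 and 3.87 CPM in QKI-KD. QKI-KD libraries were about 10.2-fold below control, the largest fall of any member in that comparison. The log2 fold changes were −0.39 (SE 0.0885, adjusted p = 0.00101), 0.61 (SE 0.087, adjusted p = 9.73e-06) and −3.34 (SE 0.105, adjusted p = 1.93e-14). RBFOX2-KD exceeded QKI-KD by 3.96 (adjusted p = 2.88e-15), and RBPMS-KD differed from RBFOX2-KD by −1 (adjusted p = 4.63e-08), at the 2-fold limit. The ratio of Col6a3 to Col6a2 was 0.0411 to 0.0501 in control and 0.00708 to 0.00874 in QKI-KD libraries. Col6a6, at 0 to 16 counts a library, passed no test against control.

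Col7a1, the collagen of the anchoring fibrils that tie the epidermis to the dermis, showed the largest change of all members. It was at 1.37, 1.48 and 1.4 CPM in control, 2.15, 2.59 and 2.04 CPM in RBPMS-KD, 1.01, 1.24 and 1.07 CPM in RBFOX2-KD and 21.5, 24 and 21.7 CPM in QKI-KD. In QKI-KD libraries these were 2691 to 2985 counts, against 168 to 221 in control. In the same order it changed by 0.68 (SE 0.104, adjusted p = 2.39e-05), −0.36 (SE 0.112, adjusted p = 0.0102) and 3.98 (SE 0.0927, adjusted p = 4.74e-16). RBPMS-KD and RBFOX2-KD cells differed by 1.04 (adjusted p = 3.24e-07), which dropped to 0.98 without RBFOX2-KD replicate 1 and to 0.92 without RBPMS-KD replicate 2, and was 0.94 with library totals alone. Col17a1, a transmembrane collagen of epithelial attachment, had 41 to 124 counts a library and rose in all 3 (0.92, 0.87 and 1.28, adjusted p = 0.00132, 0.00175 and 3.41e-05). A list of 5 epithelial markers moved with Col7a1 in QKI-KD cells, where Cldn4 and Cdh1 rose, as did Epcam, which passed the filter on low counts in QKI-KD libraries alone, and its sum was 5.63 to 7.45 CPM against 0.408 to 0.752 CPM in control, 0.188 to 0.237 CPM in RBPMS-KD and 0.275 to 0.363 CPM in RBFOX2-KD. Krt5 and Krt14, which define basal epidermal cells, were at or below 0.113 CPM in every library, with Krt14 at 7 to 14 counts in QKI-KD and 0 to 6 in the other libraries. The part of such cells in the Col7a1 result was not tested.

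The multiplexins Col15a1 and Col18a1 are proteoglycans of the basement membrane zone. Col15a1 was at 365, 371 and 371 CPM in control, 278, 269 and 299 CPM in RBPMS-KD, 455, 452 and 436 CPM in RBFOX2-KD and 119.5, 124 and 126 CPM in QKI-KD. Col18a1, the source of the fragment endostatin, was at 749, 770.2 and 807 CPM in control, 702, 659.8 and 773 CPM in RBPMS-KD, 1139, 1164 and 1140 CPM in RBFOX2-KD and 248, 267 and 266 CPM in QKI-KD. Both lay above control in every RBFOX2-KD library and at about a 3-fold lower level in every QKI-KD library. The log2 fold changes of Col15a1 were −0.39 (SE 0.0382, adjusted p = 1.3e-07), 0.28 (SE 0.038, adjusted p = 5.86e-06) and −1.58 (SE 0.0392, adjusted p = 1.02e-15), and those of Col18a1 −0.12 (adjusted p = 0.0362), 0.57 (SE 0.0485, adjusted p = 2.05e-08) and −1.57 (SE 0.0496, adjusted p = 2.08e-14). The small fall of Col18a1 in RBPMS-KD cells, where libraries overlapped control, lost its call without control replicate 2 (−0.13) or 3 (−0.1) or RBPMS-KD replicate 1 (−0.11) or 2 (−0.07). Fibroblast markers also fell with these genes in QKI-KD cells. Their 5 genes summed to 48.4 to 88.4 CPM in control, 30.1 to 31.9 CPM in RBPMS-KD, 44.9 to 52.6 CPM in RBFOX2-KD and 25.9 to 29.2 CPM in QKI-KD, with 4 falling and 1 rising in QKI-KD, and their part was not tested.

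Direct comparisons between knockdowns tested where the responses differed. RBPMS-KD and RBFOX2-KD cells differed over 2-fold at 4 of 36 members, 1 higher and 3 lower in RBPMS-KD, where 7.52% of all genes tested did, 3.1% higher and 4.41% lower. The 3 lower were Col10a1, Col9a2 and Col6a3, and the higher was Col7a1. That count dropped to 1 without RBPMS-KD replicate 2 or without RBFOX2-KD replicate 1 and to 2 without RBFOX2-KD replicate 3. RBPMS-KD against QKI-KD gave 9 members, 7 higher and 2 lower in RBPMS-KD, against 12.2% of all genes, 6.53% higher and 5.66% lower. RBFOX2-KD against QKI-KD gave 11, of which 9 were higher in RBFOX2-KD, against 18.4% of all genes, 10.6% higher and 7.74% lower. At the adjusted p alone the counts were 22, 23 and 22 of 36, against 56.7%, 61% and 68.5% of all genes. The QKI-KD libraries are shared by the last 2 of these comparisons. The 7 members higher in RBPMS-KD than in QKI-KD cells were Col1a2, Col8a1, Col6a1, Col6a2, Col6a3, Col15a1 and Col18a1, and the 2 lower were Col7a1 and Col16a1. The 9 members higher in RBFOX2-KD than in QKI-KD cells were Col1a2, Col11a1, Col8a1, Col10a1, Col6a1, Col6a2, Col6a3, Col15a1 and Col18a1. The 2 lower were Col7a1 and Col24a1, and the call of Col24a1 carries no weight as a count. Of the 4 classes, basement membrane collagens (6 tested) held no member over 2-fold apart between any pair of knockdowns. Fibrillar collagens (11 tested) held 0, 1 and 3, the 3 with Col24a1 among them. Network collagens (3 tested) held 1, 1 and 2, and FACIT collagens (7 tested) 1, 1 and 0. The order is RBPMS-KD with RBFOX2-KD, RBPMS-KD with QKI-KD and RBFOX2-KD with QKI-KD, where 7.52%, 12.2% and 18.4% of all genes passed. With so few genes tested, these counts cannot set the classes apart.

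Enzymes and chaperones that make collagen were followed as a list of 34 genes, of which 32 were tested. At the adjusted p alone 7 rose and 14 fell after RBPMS knockdown, 13 rose and 12 fell after RBFOX2 knockdown, and 12 rose and 14 fell after QKI knockdown, where 59.4%, 60.3% and 66.9% of all genes passed. Over 2-fold changes numbered 3, 8 and 6 (9.38%, 25% and 18.8% of the 32), against 9.66%, 11.7% and 17.5% of all genes, so the RBPMS and QKI shares were near that of all genes. P4ha2, a catalytic subunit of prolyl hydroxylase, was at 34.7, 38.3 and 35.6 CPM in control, 117, 127 and 118 CPM in RBPMS-KD, 123, 124 and 123 CPM in RBFOX2-KD and 113, 114 and 109 CPM in QKI-KD. It was over 3-fold above control in each, with log2 fold changes of 1.73 (SE 0.042, adjusted p = 3.49e-15), 1.77 (SE 0.042, adjusted p = 1.19e-15) and 1.63 (SE 0.0419, adjusted p = 1.63e-15). Lox, which cross-links fibrils, rose by 1.33, 1.01 and 0.64 on the log2 scale. Adamts2, which trims the amino-terminal propeptide of fibrillar procollagens, fell, with values of −1.03, −1.05 and −0.70. Serpinh1, the collagen chaperone of the endoplasmic reticulum, rose after RBPMS (0.46) and QKI knockdown (0.20) and had a log2 fold change of 0.02 in RBFOX2-KD (adjusted p = 0.708).

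Some of these genes separated the knockdowns. P3h4, a partner of lysyl hydroxylase in the endoplasmic reticulum, was at 229.7, 227 and 228 CPM in control and 57.8, 56.1 and 57.4 CPM in QKI-KD (log2 fold change −2, SE 0.0336, adjusted p = 9.54e-18), with −0.22 and 0.22 in RBPMS-KD and RBFOX2-KD. Fkbp14, a prolyl isomerase that helps fold collagen, fell in all 3, with values of −0.31, −1.57 and −1.73. Tll1, a procollagen protease, was at 2.83, 2.88 and 2.75 CPM in control and 15.6, 17.7 and 15.6 CPM in QKI-KD, where it rose by 2.53 (SE 0.0832, adjusted p = 3.62e-14) on the log2 scale, and the values after RBPMS and RBFOX2 knockdown were −0.83 and −1.14.

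Of 10 collagen receptors 9 were tested. At the adjusted p alone 1 rose and 4 fell after RBPMS knockdown, 3 rose and 3 fell after RBFOX2 knockdown, and 1 rose and 5 fell after QKI knockdown, 5, 6 and 6 of 9, near the 59.4%, 60.3% and 66.9% of all genes. Itgb1, the β1 integrin subunit shared by all collagen-binding integrins, was at 2117, 2149 and 2174 CPM in control, 1726, 1668 and 1729 CPM in RBPMS-KD, 331, 343 and 331 CPM in RBFOX2-KD and 1945, 1963 and 1970 CPM in QKI-KD. It was over 6-fold lower in RBFOX2-KD cells (−2.68, SE 0.0314, adjusted p = 6.9e-19), and the values for RBPMS and QKI were −0.33 and −0.13, the latter 0.07 in the authors' normalised table. Itga1, the α1 subunit that pairs with it, rose in all 3 (0.91, 1.07 and 0.61). Mrc2, which takes up collagen for degradation, fell in all 3 (−0.20, −0.36 and −1.12), over 2-fold in QKI-KD cells.

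The members not named by value were rare. Col23a1, at 1 to 30 counts a library, was tested and passed in no comparison. Col6a4, Col6a5, Col9a1, Col13a1, Col22a1, Col25a1, Col26a1 and Col28a1 were not tested, with at most 12 counts in any library and 10 to 64 counts over all 12, so few differences could be seen in them at this depth. With no filter on low counts 2 of the 8 passed a test. Col22a1 had no counts in any RBFOX2-KD library, against 2 to 8 in control, 0 to 8 in RBPMS-KD and 3 to 10 in QKI-KD libraries, and was called lower in RBFOX2-KD than in control, RBPMS-KD and QKI-KD cells (edgeR adjusted p = 0.00587, 0.00768 and 0.00247). Col28a1, at 0 to 1 counts in RBPMS-KD and 4 to 12 in RBFOX2-KD libraries, differed between these groups (adjusted p = 0.0329). For Col6a3 between RBPMS-KD and RBFOX2-KD, the edgeR fit without a filter gave an adjusted p of 2.58e-37, far below that of the main fit. Calls from that fit on so few counts therefore carry little weight.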

How the data were processed

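RNA-seq libraries of PAC1 cells, 3 per siRNA, were made from poly(A)-selected RNA. The authors aligned reads with STAR to mRatBN7.2 and counted them per gene with featureCounts and a RefSeq annotation. The submitters' processing notes list STAR 2.5.2a, FastQC 0.11.2, MultiQC 1.8, edgeR 3.28.1 and DESeq2 1.30.0, whereas the study's methods name other versions of STAR, FastQC and MultiQC and reads subsampled to a common depth below these totals, so which run made the deposited counts is not settled. The deposited values used here were raw counts per gene for 33294 genes. How reads that map to several genes or to a strand were handled is not given in the sources used here, so collagens that share reads with near copies or overlapping genes are uncertain. Of counts from 1 to 19, 68.1% were even, against 50.9% of large counts, and whether both mates of a pair were counted is not given in the sources used here, so counts halved and rounded were tried as well. A second deposited table held a quantile-normalised signal that the authors made from the counts after a noise filter, for 22320 genes. Adding 5 to the counts and taking quantile means gave its values within 3.38e-09, and the 10974 genes left out had at most 10 counts in any library. All columns of samples were used. The labels give 24 h between transfections and 48 h to harvest, whereas the study describes longer intervals.

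Here genes were filtered by group with edgeR 4.0.16 in R 4.3.3, scaled by TMM and fitted with a quasi-likelihood model over all 12 libraries (common dispersion 0.00241), with Benjamini-Hochberg adjustment over 18438 genes. SE is the absolute log2 fold change over the square root of F. An exact permutation test of 3 against 3 cannot go below 0.1 and was not used. The study describes its replicates as biological, and the labels do not say how the cultures were separated, so p-values measure the spread between these libraries. Replicates differed beyond counting noise, with a chi-square per degree of freedom of 4.64 to 57.8. Alternatives were DESeq2 1.42.0, limma 3.58.1 on log2 of the normalised signal with pseudocounts of 1 and 10, other scalings and filters, leaving out each library, and a replicate block. Scripts were tested on simulated data with 200 changed genes. Figures were drawn with matplotlib 3.10.9. Values are given for every tested collagen with a mean of at least 5 CPM and for any called against control with a mean of at least 1 CPM. Of the biosynthesis and receptor lists, the genes with the largest rise and fall among those over 2-fold with a mean of at least 5 CPM are named, with Itgb1, Serpinh1 and Lox. The members and lists were chosen with earlier results of these data known. Sequences come from RefSeq (GRCr8), where 35 of 44 members had a promoter, and from the study's list of siRNAs.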

Additional observations from a re-analysis of the deposited data

Results flagged for a closer look

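A difference between knockdowns is set out here where a collagen gene rose in one and fell in the other against control and the direct edgeR test between them passed over 2-fold. Values are log2 differences, first group over second, and no explanation was weighed. Between RBPMS-KD and QKI-KD cells Col1a2 differed by 1.73, Col6a1 by 1.55, Col6a2 by 1.06 and Col16a1 by −1.29. Between RBFOX2-KD and QKI-KD cells Col1a2 differed by 1.77, Col6a1 by 1.84, Col6a2 by 1.26, Col6a3 by 3.96, Col11a1 by 1.17, Col15a1 by 1.86, Col18a1 by 2.14 and Col7a1 by −4.34. Between RBPMS-KD and RBFOX2-KD cells Col7a1 differed by 1.04 and Col6a3 by −1, both close to the 2-fold limit.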

How the results depend on the processing

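Single-gene results were followed for collagen genes whose CPM is given by library and for the biosynthesis and receptor genes named above. Rarer called members, such as Col24a1, Col19a1, Col17a1 and Col9a2, were not among them. Of these results under each alternative, 1928 kept their direction and side of the adjusted p threshold. A further 16 passed newly, 17 no longer passed and 23 changed sign. Between knockdowns only collagen members already over 2-fold in the main fit were entered. All 48 results of RBPMS-KD with RBFOX2-KD, 144 of RBPMS-KD with QKI-KD and 160 of RBFOX2-KD with QKI-KD kept both, which that choice made likely. Values of 7 collagen results also crossed the 2-fold limit under an alternative. Among them were Col1a1 after RBPMS knockdown (1.03, and 0.91 in the normalised table) and Col6a2 between RBPMS-KD and QKI-KD (1.06, and 0.91 there). Col6a3 between RBPMS-KD and RBFOX2-KD, at the limit with −1, ran from −1.11 to −0.88 without 1 library. Each sign change was of a log2 value within 0.18 of 0. Col4a1 after RBPMS knockdown (0.01) became 0 with RLE size factors or DESeq2, −0.04 with library totals or the normalised table, −0.01 with no filter, and −0.01, −0.02 and −0.03 without control replicate 2, RBPMS-KD replicate 1 and RBPMS-KD replicate 3. Col8a1 after RBFOX2 knockdown became 0.05 with library totals or without control replicate 3, 0.01 with the filter on a mean of 50 counts, 0 with halved counts or 6 libraries alone and 0.12 in the normalised table. Col5a2 became 0.03 there, Col14a1 −0.07 and −0.03 without control replicate 2 and RBFOX2-KD replicate 1, and Serpinh1 (0.02) 0 without RBFOX2-KD replicate 1, all for RBFOX2, and Itgb1 for QKI became 0.07 in the normalised table.

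Counts of members over 2-fold depended most on the call rule. With the adjusted p alone they were 24 (9 higher, 15 lower), 26 (15 and 11) and 29 (11 and 18) against control for RBPMS, RBFOX2 and QKI, and 22 (2 and 20), 23 (12 and 11) and 22 (16 and 6) for RBPMS-KD with RBFOX2-KD, RBPMS-KD with QKI-KD and RBFOX2-KD with QKI-KD. Each of the higher counts against control includes Col24a1. With a test against 2-fold itself (glmTreat) RBPMS gave 4 (1 and 3), RBFOX2 3 with 0 lower, QKI 2 higher, RBPMS-KD with RBFOX2-KD 0, where the usual test at the adjusted p gave 22, and RBFOX2-KD with QKI-KD 1 lower. With a pseudocount of 10, 2 were higher for RBPMS and 2 for QKI, and 1 was lower between RBFOX2-KD and QKI-KD, as with the filter on 50 counts. With no filter 2 were lower for RBFOX2 and 2 higher in RBPMS-KD than RBFOX2-KD. Library totals gave 0 higher there and 4 lower between RBPMS-KD and QKI-KD, and 6 libraries alone gave 2 for RBPMS-KD with RBFOX2-KD, 1 of them lower. Leaving out 1 library gave 1 to 2 lower for RBFOX2 (2 without control replicate 2 or RBFOX2-KD replicate 3), 2 to 4 lower between RBPMS-KD and QKI-KD (4 without RBPMS-KD replicate 1 or 3), and 1 to 5 between RBPMS-KD and RBFOX2-KD (0 to 1 higher, 1 to 4 lower).

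Class medians shifted with the genes tested. The filter on 50 counts leaves out rare members and gave −0.081, 0.128 and −0.245 for fibrillar genes in RBPMS, RBFOX2 and QKI knockdown, −0.191 and 0.593 for FACIT genes in RBPMS and QKI, 0.244 for basement membrane genes in QKI, and 0.21, 0.625 and −0.821 for beaded filament genes. Halved counts gave 0.211, 0.617 and −0.839 for the latter. Library totals gave 0.569 and −0.477 for beaded filament genes in RBFOX2 and QKI and −0.047 for fibrillar genes in QKI. The normalised table gave 0.552 and −0.451 for beaded filament genes, −0.079 for fibrillar genes in QKI, and 0.731 (0.463 with a pseudocount of 10) for fibrillar genes in RBFOX2. Without 1 library the network median ran from −0.84 to −0.503 in RBFOX2 (−0.503 without control replicate 3) and from −2.171 to −1.689 in QKI (without control replicates 2 and 3), and the beaded filament median from 0.499 to 0.537 in RBFOX2. The FACIT median ran from −0.075 to 0.252 in RBFOX2 and from −0.421 to 0.293 in QKI, and that of basement membrane genes from −0.533 to −0.17 in RBPMS. Where no construction is named, the cause was not tested.

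Replicate numbers did not pair the libraries: deviations of libraries with the same number correlated at −0.34 to 0.25. With a replicate block the counts over 2-fold were 9, 5 and 11 against control and 3, 10 and 11 between knockdowns, and Col4a2 passed for RBPMS (−0.11, adjusted p = 0.0342 by edgeR). Depth limits the rare members, and 3 libraries a group limit small changes such as those of type V collagen.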
